A study of Mus musculus with 8 samples.

Results

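The ephrin, Slit-Robo and netrin systems are the classical cue and receptor pairs that steer growing axons, and their genes were followed here in the hippocampus of mice without Mbd2. Members were taken by symbol, as the rows of the expression table named Epha or Ephb, Efna or Efnb, Robo, Slit, Unc5 or Ntn followed by a number or letter of the family. This rule found 37 of the 19201 genes in the table, of which 22 encode receptors and 15 encode ligands. Dcc, the attractive netrin receptor, is not among them by this rule and is described with the signalling partners.

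Mbd2 is a protein that reads methylated CpG sites. The 4 wild-type libraries, which the labels call control, came from C57BL/6 mice, and the 4 Mbd2-/- libraries came from littermates with a germline deletion in Mbd2, so that every cell carries it. All were aged 10 to 12 weeks and bred from heterozygous parents, and the labels name no other allele or treatment in either group. Each library combined the hippocampi of 2 mice, so a replicate is a pool and not an animal, and males and females were used in balanced numbers without the labels giving the sex of a library. RNA depleted of ribosomal RNA was sequenced, and the values are the authors' normalized counts, that is, reads on a gene divided by the size factor of the library. Between 8087750 and 23790825 reads per library could be recovered from them. All 12 marker genes of hippocampal neurons were detected in each genotype.

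The knockout allele leaves exon 1 of Mbd2 in place, and the count of the gene covers that exon. Mbd2 was at 295, 363, 371 and 354 normalized counts in the wild-type libraries and at 244, 239.6, 339 and 217 in the Mbd2-/- libraries. Mbd2-/- replicate 3 lay within the wild-type range and the other 3 lay below it. The log2 fold change was -0.43 (standard error, SE, of 0.12), with an adjusted p = 0.0174 from limma with Benjamini-Hochberg adjustment over all genes.

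Eph receptors are receptor tyrosine kinases and their ephrin ligands are held in the membrane of the neighbouring cell, the A class by a lipid anchor and the B class by a transmembrane segment, so both partners can signal after contact. Slits are secreted proteins that repel axons through Robo receptors, and netrins attract axons through Dcc and repel them through Unc5 receptors. In the adult hippocampus several of these molecules are known at synapses and dendritic spines, and bulk RNA cannot tell fewer cells that express such a gene from less RNA per cell.

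In the main fit, with all 8 libraries, guidance genes were lower or not called in Mbd2-/- hippocampi, and none was called higher. Of the 36 members that passed the minimum of a mean of 10 normalized counts, 15 were called lower at an adjusted p under 0.05 and 0 were called higher in limma. Among all 14504 genes tested, 10.0% were called lower and 12.0% higher. The median log2 fold change, computed on log2(normalized count + 1) throughout, was -0.18 over the members and -0.00 over all genes. At an unadjusted p under 0.05 in limma, 3 members had a positive difference (Efna1, Ephb1 and Ntn4), and 0 passed the adjusted threshold with DESeq2, edgeR or limma-voom on recovered reads. The 4 wild-type libraries lay wholly above the 4 Mbd2-/- libraries in 13 members and wholly below them in 0, against 11.5% and 12.1% of all genes. The number called lower depended on single libraries, as did the share of all genes. Leaving out wild-type replicate 1, 3 or 4 gave 7, 6 and 7 such members, beside 5.99%, 6.07% and 6.24% of all genes. Leaving out Mbd2-/- replicate 1, 2 or 4 gave 7, 8 and 20, beside 6.35%, 6.47% and 17.7%. Efna1 and Ephb1 were called higher without Mbd2-/- replicate 4 and Ntn4 without wild-type replicate 3, beside 17.9% and 8.23% of all genes. With the trend on transcript length removed, 5 members were called lower and 1 (Ephb1) higher, beside 6.81% and 8.09%.

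Both receptors and ligands held genes called lower, and the difference between the 2 classes was not tested. In the receptors, 10 of 22 were called lower and the median log2 fold change was -0.19. In the ligands, 5 of 14 tested were called lower and the median was -0.15. Over all genes tested 10.0% were called lower. With the trend on transcript length removed, 2 receptors and 3 ligands were called lower, beside 6.81% of all genes, with medians of -0.10 and -0.11. Without Mbd2-/- replicate 4 the counts were 15 receptors and 5 ligands, beside 17.7%. By family, the called members were 3 of 9 EphA receptors, 2 of 5 EphB receptors, 2 of 4 Robo receptors, 3 of 4 Unc5 receptors, 1 of 4 ephrin-A ligands, 1 of 3 ephrin-B ligands, 3 of 3 Slit ligands and 0 of 4 netrins.

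Efna5, Robo3 and Slit1 were called lower under all 22 alternatives tried, which comprise 14 that keep every library and 8 that leave out 1. Epha4 and Slit2 were called whichever library was left out. Of the 8 fits that left out a library, Robo1 was called in 1, Epha6, Unc5b and Unc5c in 2, Slit3 in 3, Epha8, Ephb6 and Unc5a in 4, Ephb2 in 5 and Efnb1 in 6. None of the 15 called members changed sign under an alternative, and 9 of the members not called did.

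**Figure D1:**
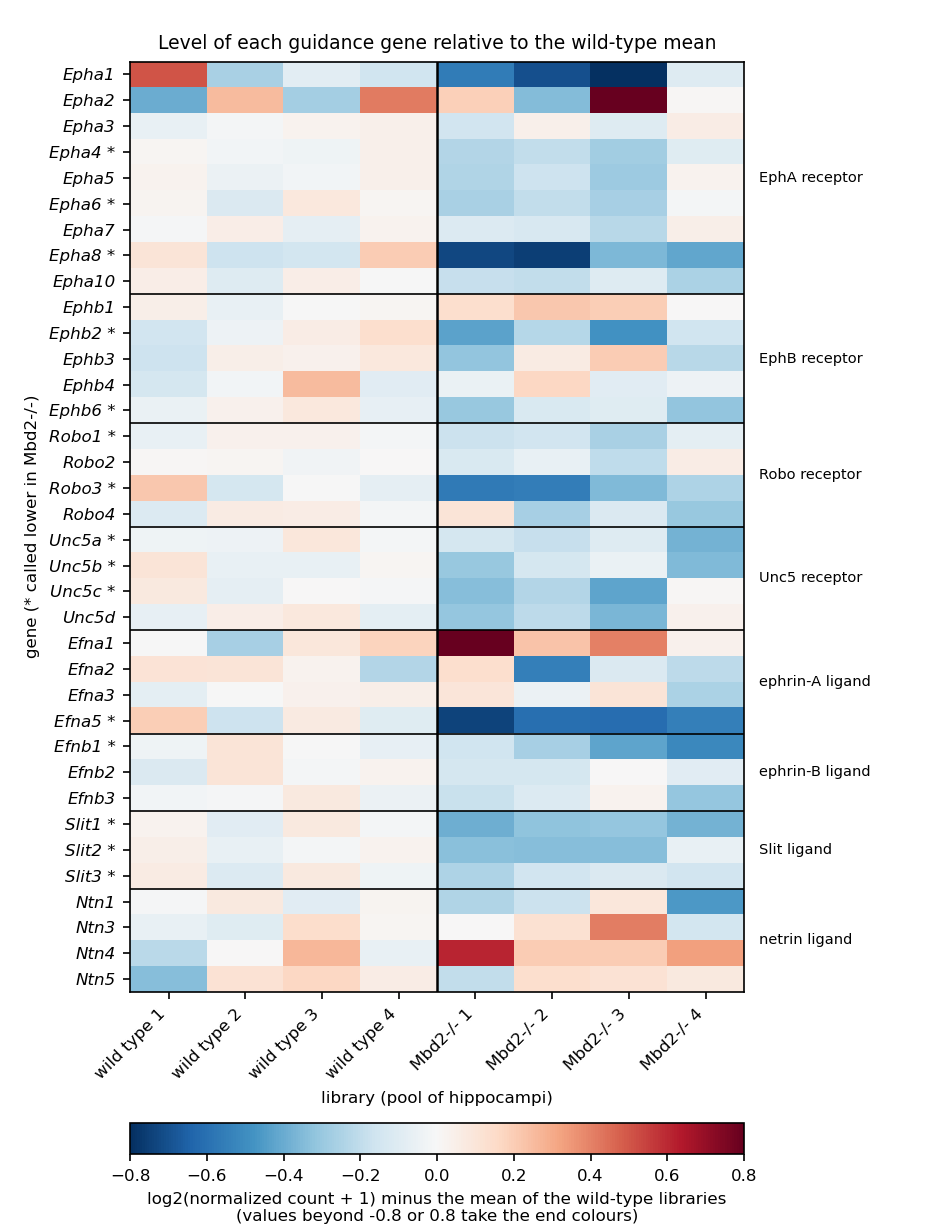
Each row is one of the 36 tested guidance genes and each column a library, and the colour gives log2(normalized count + 1) minus the mean of the 4 wild-type libraries. In 16 rows all 4 Mbd2-/- libraries are blue, the 3 Slit rows among them, in 11 more 3 of the 4 are, and an asterisk marks the 15 genes called lower.

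Expressed per kilobase of the longest transcript, so that genes can be compared in level, the Eph receptors held the most RNA of the 6 groups. Their summed level was 2774 ± 43.5 (SD, n = 4) in wild-type and 2490.1 ± 117 in Mbd2-/- libraries, and Epha4 made up 31.0% of it. Slits came to 902 ± 43.6 against 736 ± 19.7 (percent change -18.5), and Slit1 made up 64.3% of that. The sum of the Unc5 receptors was 758 ± 21.0 against 657 ± 26.3 (percent change -13.3), and the sum of the Robo receptors 349 ± 2.33 against 315 ± 17.8 (percent change -9.75). Ephrins summed to 1053 ± 29.8 against 976 ± 83.9 normalized counts per kilobase (percent change -7.34), of which Efnb3 alone was 58.5%. Netrins were the least abundant group, at 113 ± 7.94 against 118 ± 9.94 (percent change 4.80). The ranges of the libraries did not overlap for Eph receptors, Robo receptors, Slits and Unc5 receptors and overlapped for ephrins and netrins.

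All 3 Slit genes fell. Slit1, a secreted repellent encoded on chr19:41674747-41818155 of mm9 (minus strand), had the smallest p of all members and was at 3413, 3144, 3529.7 and 3303 normalized counts in wild-type and at 2546, 2679, 2703 and 2574 in Mbd2-/- libraries. Every Mbd2-/- library lay below every wild-type library, and the log2 fold change was -0.35 (SE 0.05, limma adjusted p = 0.000282). Slit2, which repels the same Robo-bearing axons, was at 721, 672, 692 and 713 in wild-type and at 554, 552, 551 and 670 in Mbd2-/- libraries, so that Mbd2-/- replicate 4 stood close to the lowest wild-type library and the other 3 stood together. Its log2 fold change was -0.27 (SE 0.07, limma adjusted p = 0.0124), and without Mbd2-/- replicate 4 it was -0.34. Slit3, the third family member, was at 1232, 1092, 1239.8 and 1150.4 in wild-type and at 991, 1058, 1085 and 1057 in Mbd2-/- libraries, where the lowest wild-type and the highest Mbd2-/- library almost met. It passed the test narrowly with a log2 fold change of -0.17 (limma adjusted p = 0.0489). With the trend on transcript length removed, Slit1 was the only one of the 3 still called (limma adjusted p = 0.0019), with 0.0899 for Slit2 and 0.318 for Slit3.

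**Figure D2:**
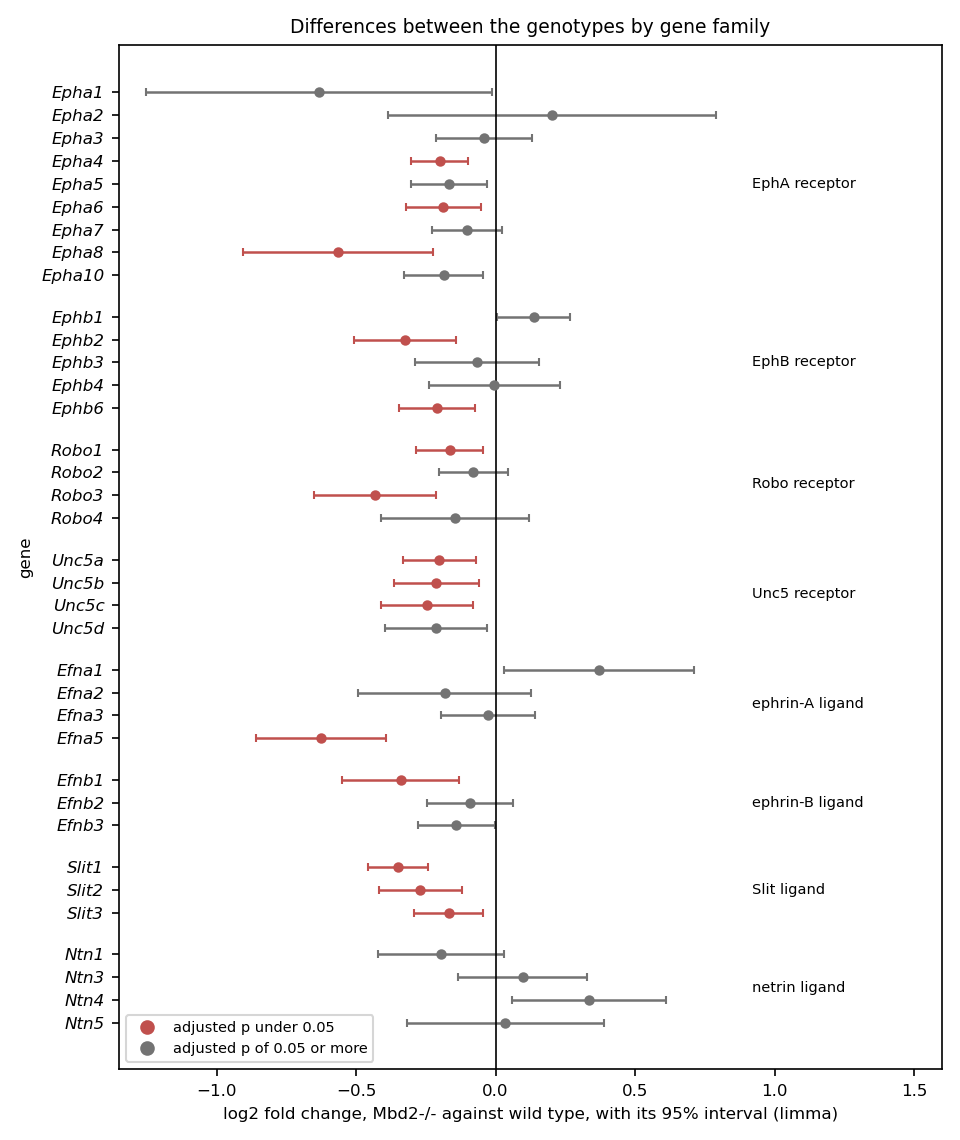
Points are log2 fold changes of Mbd2-/- against wild type and bars their 95% intervals from limma, with the genes ordered by family. The 15 called genes, drawn in red, all lie left of 0, and the netrins lie on both sides of it.

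Among the 4 Robo genes, Robo3 had the largest log2 fold change. Robo3, the divergent member of the family known from axons that cross the midline, lies on chr9:37223254-37240760 of mm9 (minus strand) and was at 220.3, 172, 189.6 and 181 normalized counts in wild-type and at 128, 129, 148 and 159.5 in Mbd2-/- libraries. These ranges did not overlap, and the log2 fold change was -0.43 (SE 0.10, limma adjusted p = 0.0077). Robo1, a main Slit receptor, was at 938, 1001, 1002 and 968 in wild-type and at 866, 879, 818 and 926 in Mbd2-/- libraries. The groups were separate but close, with a log2 fold change of -0.17 (limma adjusted p = 0.0482). Robo2, which acts with Robo1 and had the highest level per kilobase of the 4, was at 163 ± 2.35 normalized counts per kilobase in wild-type libraries, and its difference was -0.08 on the log2 scale (95% interval -0.20 to 0.04). Robo4, the Robo of blood vessels, had a low normalized count of 76.2 ± 4.32 against 69.1 ± 9.20 without Mbd2 (SD, n = 4), and its 95% interval ran from -0.41 to 0.12. Of 8 endothelial markers, 5 had a log2 fold change above 0 and 3 below it, from -0.15 to 0.38, and 2 were called higher (Cldn5 and Slco1a4) and 0 lower in limma, beside 12.0% and 10.0% of all genes.

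Robo3 and Robo4 lie 1.65 kb apart on chromosome 9 of mm9, the genome build of the files, and Robo1 and Robo2 lie 846 kb apart on chromosome 16. Within each of these pairs 1 gene was called and the other was not, a difference that was not itself tested.

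Of the Unc5 receptors, which mediate repulsion by netrin and can trigger cell death without their ligand, 3 of 4 were called lower and the fourth, Unc5d, had a similar estimate. Unc5a was at 1865, 1859, 2037 and 1893 normalized counts in wild-type and at 1738, 1681, 1779 and 1473 in Mbd2-/- libraries. No library crossed the gap between the genotypes, and replicate 4 was the lowest (log2 fold change -0.20, SE 0.06, limma adjusted p = 0.0287). Unc5b was at 818, 731, 729 and 771 in wild-type and at 618, 689.5, 735 and 595 in Mbd2-/- libraries, where replicate 3 reached the wild-type range (log2 fold change -0.21, limma adjusted p = 0.0441). Unc5c was at 1052, 951, 998 and 994 in wild-type and at 788, 847, 746 and 1005 in Mbd2-/- libraries. Here it was replicate 4 that lay within the wild-type range, and the log2 fold change of -0.25 (limma adjusted p = 0.0324) became -0.33 without it. Unc5d, at 361 ± 20.4 against 313 ± 39.9 normalized counts (SD, n = 4), had a log2 fold change of -0.21 (95% interval -0.40 to -0.03, limma adjusted p = 0.0879). With the trend on transcript length removed 0 of the 4 were called, with a median of -0.11, beside 6.81% of all genes called lower. None was called without wild-type replicate 1, 3 or 4 or without Mbd2-/- replicate 2, beside 5.99%, 6.07%, 6.24% and 6.47%.

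The netrins themselves were not called in the main fit. Ntn4, a netrin of basement membranes, was at 68.9, 80.5, 96.6 and 77.0 normalized counts in wild-type and at 123, 92.4, 92.4 and 101 in Mbd2-/- libraries. The groups overlapped through wild-type replicate 3 alone, and the log2 fold change was 0.33 (SE 0.13, limma adjusted p = 0.0755). Ntn1, the founding ligand of the Dcc and Unc5 receptors, was at 181 ± 8.88 in wild-type and 159.7 ± 25.4 in Mbd2-/- libraries (95% interval of the log2 fold change -0.42 to 0.03). Ntn3 and Ntn5 had intervals of -0.13 to 0.33 and of -0.32 to 0.39, both of which include 0. At an unadjusted p under 0.05, 1 of the 4 netrins (Ntn4) passed in limma, in DESeq2 and in edgeR, and in limma-voom on the recovered reads 1 was higher and 1 lower.

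Efna5 had the largest change of the 15 called members. This lipid-anchored ephrin, a repellent in topographic maps, lies on chr17:62953533-63230666 of mm9 (minus strand) and was at 145, 113, 133 and 118 normalized counts in wild-type and at 75.3, 83.2, 82.9 and 86.5 in Mbd2-/- libraries. The Mbd2-/- libraries lay close together and well below the lowest wild-type one, and the log2 fold change was -0.63 (SE 0.11, limma adjusted p = 0.00114). Efnb1, a transmembrane ephrin encoded on chromosome X, was at 159, 175, 162 and 156 in wild-type and at 146, 135, 121 and 113 in Mbd2-/- libraries, again without overlap (log2 fold change -0.34, SE 0.10, limma adjusted p = 0.0216).

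The remaining ephrins did not pass the test. Efnb3, known as a midline barrier in the nervous system and the ligand with the highest level per kilobase, was at 1950.0, 1970.4, 2089 and 1912 normalized counts in wild-type and at 1751, 1838, 2021 and 1595 in Mbd2-/- libraries, where replicate 3 lay within the wild-type range (log2 fold change -0.14, limma adjusted p = 0.13). Efna3, the astrocytic partner of Epha4 at hippocampal spines, was at 459 ± 17.9 and 453 ± 51.2 normalized counts (SD, n = 4), with a 95% interval of the log2 fold change from -0.19 to 0.14. Efnb2, the arterial ephrin, had an interval from -0.25 to 0.06 and Efna2 one from -0.49 to 0.13. Efna1 was at 60.4 ± 7.85 and 79.4 ± 19.2 normalized counts, and Mbd2-/- replicate 1 at 106 was the highest library (log2 fold change 0.37, limma adjusted p = 0.11). Efna4, at 7.17 ± 3.16 and 8.14 ± 3.69, was under the minimum and was not tested. Efna1, Efna3 and Efna4 follow one another among the members on chromosome 3 of mm9 with gaps of 32.8 and 10.4 kb. Genes outside the list that lie in these gaps were not examined.

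**Figure D3:**
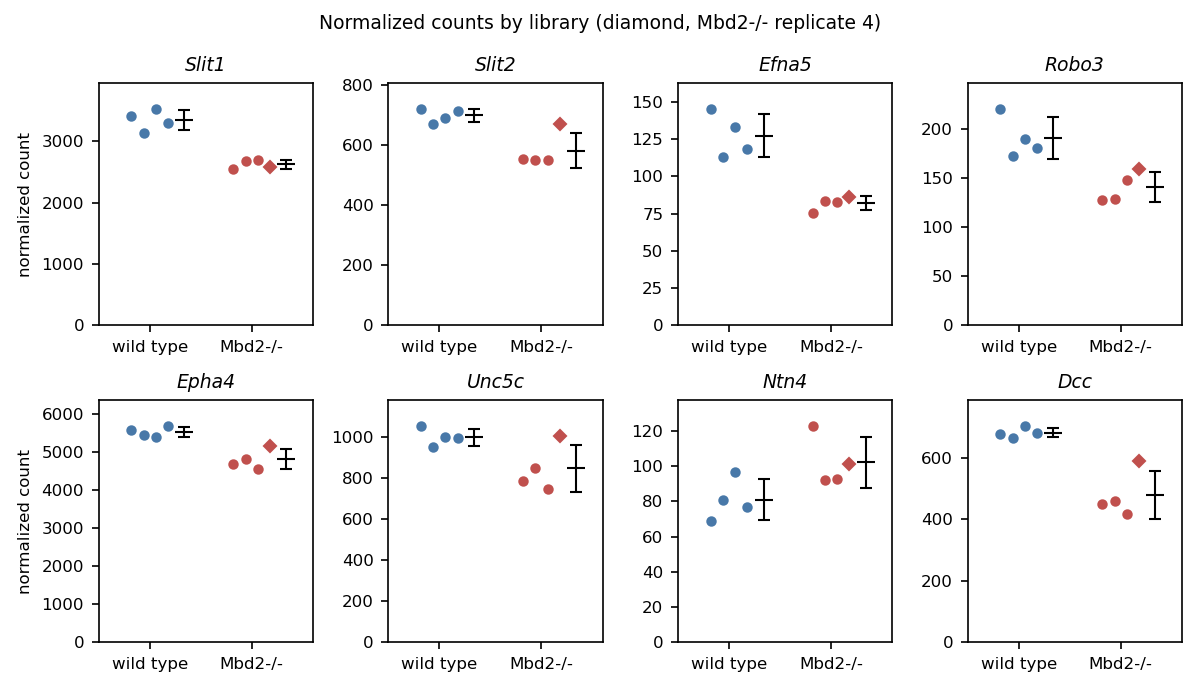
Points are normalized counts of single libraries for 7 guidance genes and Dcc, bars show the mean and SD of 4 libraries, axes start at 0 and a diamond marks Mbd2-/- replicate 4. The genotypes do not overlap for Slit1, Slit2, Efna5, Robo3, Epha4 and Dcc and overlap for Unc5c and Ntn4, and the diamond is the highest Mbd2-/- library in 6 of the 8 panels, the exceptions being Slit1 and Ntn4.

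The EphA receptors bind ephrin-A ligands. Epha4, which also accepts B-class ephrins and had the highest level of all receptors (873 ± 20.3 normalized counts per kilobase in wild-type libraries), was at 5571, 5439.6, 5397 and 5679 normalized counts in wild-type and at 4685, 4821, 4562 and 5167 in Mbd2-/- libraries. The genotypes were separate, and the log2 fold change was -0.20 (SE 0.05, limma adjusted p = 0.00849). Epha6 was at 2059, 1878, 2150.5 and 2052 in wild-type and at 1694, 1769.6, 1688 and 2008 in Mbd2-/- libraries, with replicate 4 within the wild-type range (log2 fold change -0.19, limma adjusted p = 0.0431). Epha8 had few reads and a larger change. It was at 55.5, 45.9, 46.5 and 59.5 in wild-type and at 30.6, 30.2, 39.8 and 38.4 in Mbd2-/- libraries, without overlap (log2 fold change -0.56, SE 0.16, limma adjusted p = 0.0204).

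Other EphA receptors missed the threshold. Epha5 (log2 fold change -0.17, 95% interval -0.30 to -0.03) and Epha10, a member without kinase activity (-0.19, interval -0.33 to -0.04), had intervals below 0 and adjusted p of 0.0705 and 0.0568 in limma. Epha7 had -0.10 (interval -0.23 to 0.02) and Epha3 -0.04 (interval -0.21 to 0.13). The 2 scarcest members of the class, Epha1 at 15.9 ± 4.44 and Epha2 at 20.6 ± 5.87 normalized counts in wild-type libraries (SD, n = 4), had wide intervals, -1.25 to -0.01 for Epha1 and -0.38 to 0.79 for Epha2.

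The EphB receptors bind the transmembrane ephrins. Ephb2, which is known to associate with NMDA receptors at excitatory synapses, was at 375, 406, 436 and 457 normalized counts in wild-type and at 310.3, 357, 298 and 373 in Mbd2-/- libraries. The ranges were separate by a narrow margin (log2 fold change -0.32, SE 0.09, limma adjusted p = 0.0137). Ephb6, the EphB receptor without kinase activity, was at 944, 1004, 1038 and 936 in wild-type and at 794, 899, 915 and 788 in Mbd2-/- libraries, again separate (log2 fold change -0.21, limma adjusted p = 0.0299). Ephb1 stood above the wild-type range in 3 Mbd2-/- libraries and within it in replicate 4. Its mean normalized count was 677 ± 20.6 against 745 ± 48.3 without Mbd2 (SD, n = 4), with a log2 fold change of 0.14 (95% interval 0.01 to 0.27, limma adjusted p = 0.125). Ephb1 was called higher with the trend on transcript length removed (0.20, limma adjusted p = 0.0387), beside 8.09% of all genes. It was also called higher without Mbd2-/- replicate 4 (0.18, limma adjusted p = 0.0123), beside 17.9%. Ephb3 and Ephb4, the venous Eph receptor, had intervals of -0.29 to 0.15 and of -0.24 to 0.23. Ephb2 and Epha8, both called lower, follow one another among the members on chromosome 4 of mm9 with 93.4 kb between them. Genes outside the list that lie in this gap were not examined.

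Since Mbd2 reads CpG sites, the promoter sequences of a few members are shown. Of the 37 members, 33 have RefSeq promoter windows in GRCm38.p6, a later build than mm9, in 38 windows, and Slit1, Ntn1, Unc5d and Efnb3 have none. The 250 bases before the start were searched for CG and for GGGCGG, a GC box, on both strands, and every GGGCGG holds a CG. The median window held 16.5 CG for the members and 6.0 for all 32851 promoter windows. These windows belong to 27025 genes, whether or not the gene was tested here. The members were not compared with windows of the tested genes alone. At least 10 CG were in 81.6% of the member windows and in 37.8% of all windows, and GGGCGG was in 68.4% and 32.7%. Among members called lower, all 14 windows held at least 10 CG (median 24.0), and among members tested and not called 17 of 23 windows did (median 16.0). This comparison was not tested, and a sequence says nothing of methylation or binding. The windows ran from 11 to 46 CG in members called lower and from 2 to 31 in members tested and not called. CG-rich windows of members not called, such as those of Efna3 (31 CG) and Efnb2 (27 CG), are not shown. Neither is Robo1, called lower with 11 CG. Shown 5′ to 3′ on the strand of the gene, with CG in capitals, are 4 members called lower, among them the most CG-rich member window (Epha8, 46 CG). After them stand Ephb1 and Robo4, which were not called and hold 10 and 2 CG.
Epha8, chr4:136956817-136957066, minus strand: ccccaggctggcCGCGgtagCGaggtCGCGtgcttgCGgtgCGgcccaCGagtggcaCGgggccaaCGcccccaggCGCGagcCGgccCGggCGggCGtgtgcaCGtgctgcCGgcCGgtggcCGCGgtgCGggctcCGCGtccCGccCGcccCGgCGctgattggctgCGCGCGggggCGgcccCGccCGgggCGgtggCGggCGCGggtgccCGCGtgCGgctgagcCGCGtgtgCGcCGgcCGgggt
Efna5, chr17:62881318-62881567, minus strand: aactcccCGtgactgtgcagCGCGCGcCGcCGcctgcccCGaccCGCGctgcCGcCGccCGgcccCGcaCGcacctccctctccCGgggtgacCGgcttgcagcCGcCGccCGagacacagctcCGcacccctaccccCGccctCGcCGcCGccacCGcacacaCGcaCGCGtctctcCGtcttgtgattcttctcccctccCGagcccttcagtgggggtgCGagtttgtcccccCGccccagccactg
Slit2, chr5:47982905-47983154, plus strand: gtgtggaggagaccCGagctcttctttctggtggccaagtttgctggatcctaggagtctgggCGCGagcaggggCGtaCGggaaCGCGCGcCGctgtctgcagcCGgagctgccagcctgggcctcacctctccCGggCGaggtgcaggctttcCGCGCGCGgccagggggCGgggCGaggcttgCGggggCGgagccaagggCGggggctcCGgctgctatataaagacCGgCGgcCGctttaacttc
Robo3, chr9:37433176-37433425, minus strand: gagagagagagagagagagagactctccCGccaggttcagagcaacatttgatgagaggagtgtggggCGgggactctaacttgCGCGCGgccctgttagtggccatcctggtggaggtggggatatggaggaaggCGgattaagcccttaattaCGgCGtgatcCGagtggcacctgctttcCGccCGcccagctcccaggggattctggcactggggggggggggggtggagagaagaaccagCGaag
Ephb1, chr9:102354694-102354943, minus strand: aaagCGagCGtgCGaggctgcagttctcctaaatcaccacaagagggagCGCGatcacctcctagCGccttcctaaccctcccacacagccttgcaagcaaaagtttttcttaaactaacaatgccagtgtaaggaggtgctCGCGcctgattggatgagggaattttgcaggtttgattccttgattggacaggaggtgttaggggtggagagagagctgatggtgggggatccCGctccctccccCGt
Robo4, chr9:37401722-37401971, plus strand: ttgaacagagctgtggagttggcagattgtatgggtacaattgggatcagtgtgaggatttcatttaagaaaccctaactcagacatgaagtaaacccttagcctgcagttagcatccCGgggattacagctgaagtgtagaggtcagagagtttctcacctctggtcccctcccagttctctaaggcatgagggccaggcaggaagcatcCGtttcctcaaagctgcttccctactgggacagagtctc

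Mbd2-/- replicate 4 stood apart from the other Mbd2-/- libraries, and its difference from them ran with the GC content and the length of the transcripts. In the 12 tested members whose longest transcript has under 50% GC, replicate 4 was above the mean of replicates 1 to 3 in 12 and was the highest Mbd2-/- library in 11. The median log2 level of these genes relative to the wild-type mean was -0.24, -0.18 and -0.27 in replicates 1 to 3 and -0.00 in replicate 4. In the 24 members with 50% GC or more, replicate 4 was below that mean in 18 and was the lowest Mbd2-/- library in 12, and the medians were -0.18, -0.16 and -0.10 in replicates 1 to 3 and -0.23 in replicate 4. The 50% limit was chosen after the values were seen.

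**Figure D4:**
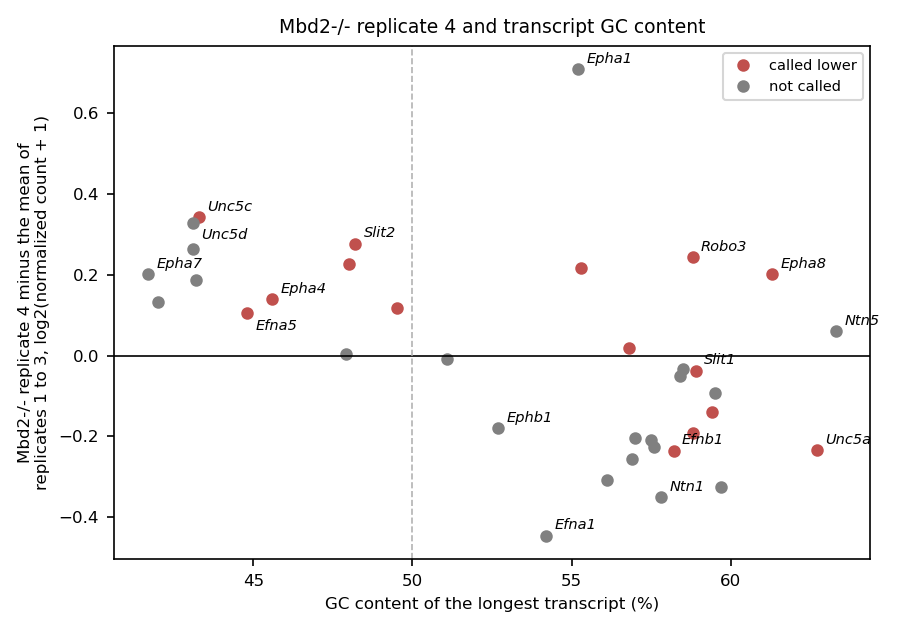
Each point is a tested guidance gene, placed by the GC content of its longest transcript and by the log2 difference of Mbd2-/- replicate 4 from the mean of Mbd2-/- replicates 1 to 3. All 12 genes left of the dashed line at 50% lie above 0, and 18 of the 24 to its right lie below.

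Across the 36 members, the difference of replicate 4 from the other 3 had a Pearson's r of -0.51 and a Spearman's rho of -0.51 with GC content. Across 13735 genes the values were -0.53 and -0.57. With the log2 length of the longest transcript, r was 0.43 and rho 0.48 across the members, and 0.35 and 0.43 across 14182 genes. All these genes share the library and its composition, and the parts of GC content and length in the difference were not tested. Over members the median coefficient of variation was 5.56% in wild-type and 10.1% in Mbd2-/- libraries, and it was 7.17% in Mbd2-/- libraries without replicate 4. Over all genes tested these values were 6.34%, 9.64% and 7.20%. Without that replicate 20 members were called lower, where 17.7% of all genes were, and 2 members (Efna1 and Ephb1) were called higher, where 17.9% of all genes were. The members gained were Epha1, Epha5, Epha7, Robo2 and Unc5d, and none of the 15 was lost. With the GC trend of each library removed in limma, 20 members were called lower and 0 higher, beside 17.1% and 15.9% of all genes.

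Transcript length moved with the result as well. Over all genes the log2 fold change had a Spearman's rho of -0.46 with the length of the longest transcript (14182 genes, Pearson's r -0.40), and over the 36 members rho was -0.30 (r -0.29). The median longest transcript was 4690.0 bases for the members and 3189 bases for all genes tested. With the trend on length removed from each library, 5 members remained called lower (Efna5, Efnb1, Epha8, Robo3 and Slit1), beside 6.81% of all genes, and Ephb1 was called higher, beside 8.09%. The median of the members was then -0.10, with 27 of 36 below 0. The other 10 called genes kept a log2 fold change below 0 there, among them Slit2 at -0.14 (limma adjusted p = 0.0899), Epha4 at -0.10 (adjusted p = 0.106) and Robo1 at -0.04 (adjusted p = 0.62). With both trends removed, an alternative chosen after the data were seen, 13 members were called lower and Ephb1 and Ntn4 were called higher, beside 10.7% and 11.6% of all genes. The part of length in the result was not tested beyond these values.

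**Figure D5:**
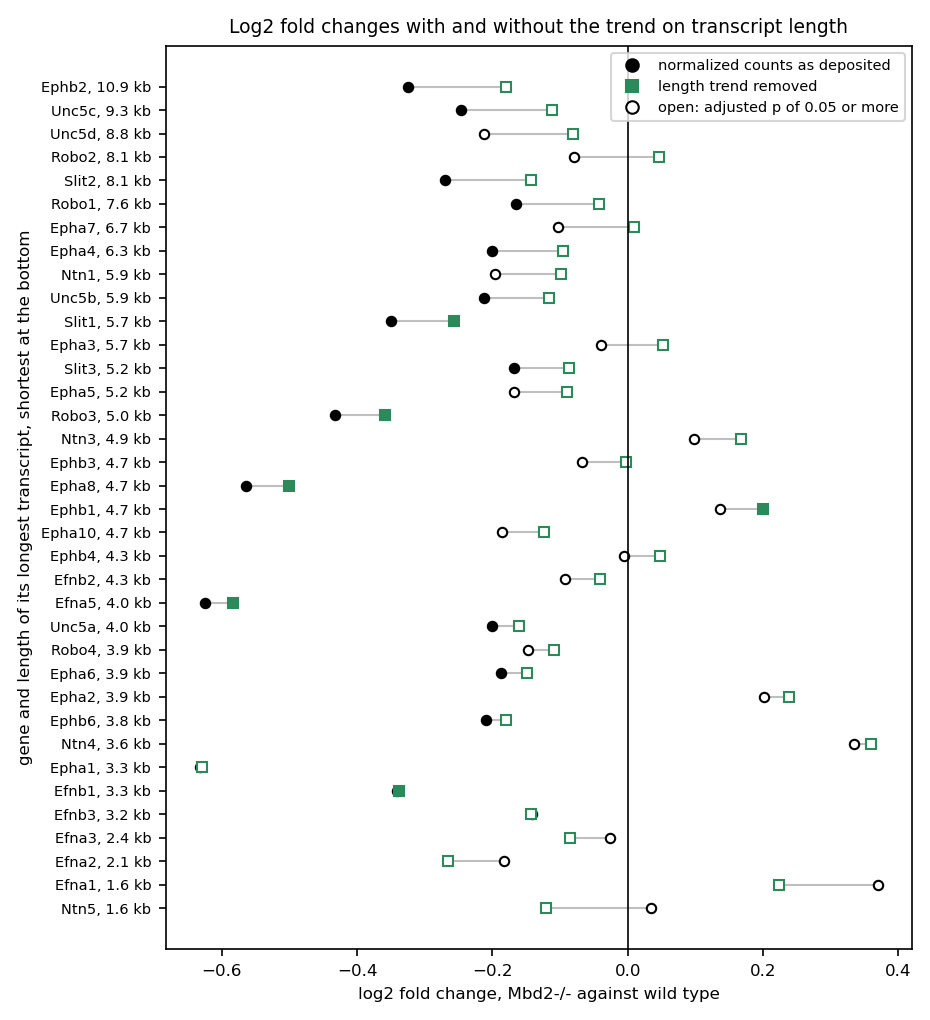
Circles are log2 fold changes from the deposited normalized counts and squares those after the trend on transcript length was removed, for 36 guidance genes ordered by length, and open symbols did not pass an adjusted p of 0.05. All squares of genes over 4 kb lie to the right of their circles, and Efna5, Efnb1, Epha8, Robo3 and Slit1 remain filled and left of 0.

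Other proteins linked to these pathways were taken as 3 lists of partners. The lists hold proteins that carry the signal onward, and also receptors and ligands outside the rule, such as Dcc, Neo1, Ntng1 and Rgmb. They were drawn up with earlier results of these data known. Over all genes tested 10.0% were called lower and 12.0% higher. Of 23 netrin partners, 10 were called lower and 0 higher in limma, in DESeq2 and in edgeR, and at an unadjusted p under 0.05 they were 14 and 0 in limma. Without Mbd2-/- replicate 4 the calls were 15 and 0, beside 17.7% and 17.9% of all genes. With the length trend removed 3 were called lower and 1 higher, beside 6.81% and 8.09% of all genes. Dcc was at 677, 664, 702 and 681 normalized counts in wild-type and at 448, 459, 416 and 590.0 in Mbd2-/- libraries, with replicate 4 between the others and the wild type (log2 fold change -0.52, SE 0.09, limma adjusted p = 0.00076). Dcc lies 633 kb from Mbd2 on chromosome 18 of mm9, and the part of this position in its difference was not tested. Neo1, the relative of Dcc that also binds repulsive guidance molecules, was at 1839.7 ± 36.0 against 1677 ± 68.0 normalized counts (SD, n = 4) and missed the threshold (log2 fold change -0.13, limma adjusted p = 0.0666). Ntng1, a lipid-anchored netrin relative at synapses, was at 499, 527, 539.7 and 514 in wild-type and at 405, 378, 363 and 412 in Mbd2-/- libraries (log2 fold change -0.42, limma adjusted p = 0.000536). Rgmb, a ligand of Neo1, fell by 0.27 on the log2 scale (limma adjusted p = 0.00416), and for it, Ntng1 and Dcc the call held with the length trend removed.

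Of 15 Slit-Robo partners, 2 were called lower and 1 higher, with a median of -0.11 and 14 of 15 below 0. Without Mbd2-/- replicate 4 these counts were 8 and 1, beside 17.7% and 17.9% of all genes, and with the GC trend removed they were also 8 and 1, beside 17.1% and 15.9%. With the length trend removed both counts were 0, beside 6.81% and 8.09%. Srgap1 and Srgap2, GTPase activating proteins that bind Robo receptors, had log2 fold changes of -0.27 and -0.22 (adjusted p = 0.0116 and 0.0128, limma), and neither call held with the length trend removed (adjusted p = 0.146 and 0.209). Cxcr4, a chemokine receptor whose signalling Slit can dampen, was at 27.0, 49.7, 46.5 and 45.1 normalized counts in wild-type and at 62.6, 45.7, 73.3 and 67.3 in Mbd2-/- libraries, where replicate 2 lay in the wild-type range (log2 fold change 0.57, limma adjusted p = 0.0470). Its call did not hold with the length trend removed either (limma adjusted p = 0.125). Of 30 ephrin partners, 3 were called lower and 5 higher, with a median of -0.08. Without Mbd2-/- replicate 4 they were 11 and 5, beside 17.7% and 17.9% of all genes, and with the GC trend removed 7 and 4, beside 17.1% and 15.9%. With the length trend removed they were 1 and 4, beside 6.81% and 8.09%, and the median was -0.002. The 3 called partners with the largest log2 fold changes were higher, the Src-family kinase Yes1 with a log2 fold change of 0.30 (limma adjusted p = 0.0157), the adaptor Nck1 with 0.24 (adjusted p = 0.0473) and the GTPase Rhoa with 0.22 (adjusted p = 0.00812). Without the length trend, Rhoa missed the threshold (limma adjusted p = 0.0562). The difference between the 3 partner lists was not tested.

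Markers of other tissue and cells moved with the genotype, and their counts stand beside 12.0% of all genes called higher and 10.0% called lower. All 12 choroid plexus markers were called higher, their summed level running from 24051 to 25759 normalized counts in wild-type and from 46516 to 53088 in Mbd2-/- libraries, and Ttr, the transport protein of that tissue, had a log2 fold change of 1.32. Of 10 thalamus markers 7 were called lower, with sums of 3140 to 3275 and of 2107 to 2294 normalized counts, and Tcf7l2, a transcription factor of thalamic neurons, had a log2 fold change of -0.49. Higher calls were 5 of 9 for oligodendrocytes (sums of 77968 to 79201 and of 91776 to 98120), 5 of 7 for astrocytes (106810 to 109235 and 116628 to 140430), 4 of 7 for microglia (3841 to 4012 and 4280 to 4741), and 2 of 8 for endothelium (2438 to 2520 and 2592 to 2787). For striatum 2 of 8 were called higher and 1 lower, and 6 had a log2 fold change below 0. The striatal sums were 1042 to 1085 and 1031 to 1297 normalized counts, and 488 to 511 and 419 to 492 without Ppp1r1b, the most abundant of them. Among the 12 markers of hippocampal neurons, 4 were called lower and 1, Camk2a, was called higher. Of the 12, 9 had a log2 fold change below 0, and the median was -0.12. Their sums were 85064 to 87132 in wild-type and 97592 to 100782 in Mbd2-/- libraries, and without Camk2a, the most abundant of them, 17938 to 18402 and 16585 to 16908. Camk2a, Ppp1r1b and the endothelial genes were singled out after their values were seen. No marker on any list was at 0, and the part of these cells in the guidance gene differences was not tested.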

How the data were processed

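RNA sequencing covered 8 hippocampal libraries, 4 wild-type and 4 Mbd2-/-, read as paired ends of 100 bases. Before deposit, the authors deduplicated the reads, mapped them with STAR against mm9 and scaled the count of each gene by the DESeq2 size factor, and this normalized count is the deposited signal of each library. Versions and the counting tool are not given in the sources used here. The deposited log2 fold changes, their standard errors, test scores and p-values are the authors' own comparison and were not used.

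The value of 1 read in each library gave back the reads, and 100% of values came out whole to within 0.01. No library repeats another, since replicates of 1 group varied 1.97 to 15.4 times as much as counting error alone would give. Library strand is not stated, and 12 members share exon bases with another gene, so their counts are less certain (Efna3, Efna4, Efna5, Epha1, Epha6, Epha10, Ephb1, Ephb4, Ntn1, Ntn3, Ntn5 and Unc5a, where the other Efna5 entry is a second record of the gene). Genes with a mean of at least 10 normalized counts (14504) were compared on log2(normalized count + 1) with limma 3.58.1 (trend, robust; R 4.3.3), adjusted over all genes by Benjamini-Hochberg and called at 0.05. Smooth trends had a span of 0.3. No p was adjusted over the list alone. The test was checked on simulated counts. The alternatives comprised edgeR 4.0.16 (quasi-likelihood), DESeq2 1.42.0 and limma-voom on recovered reads, other scaling, pseudocounts (0.5 and 5) and filters (none, or a mean of at least 50), no moderation trend, a replicate block, removal of length and GC trends, and leaving out each library. Removing both trends was added after the data were seen.

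Annotation was GENCODE vM1 on mm9 (18097 of 19201 symbols matched), and promoters were RefSeq on GRCm38.p6. Every member is named, with values by library for called members, the smallest p in each family, the receptor and ligand highest per kilobase, and, of the partners, Dcc, Neo1 and the 3 largest called changes per list. Members and lists were chosen with earlier results of these data known. Intervals are from limma, replicates are pools of 2 mice, and reads carry no molecular identifiers, so depth speaks for counting error only.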

Additional observations from a re-analysis of the deposited data

Results flagged for a closer look

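Slit2 in Mbd2-/- replicate 4 was flagged because its normalized count of 670 stood far from the other 3 Mbd2-/- libraries, which lay between 551 and 554. The gap to the nearest library was 0.977 of the range of the group. It was the only library flagged among 74 groups of 4 libraries examined over the 37 members, and chance alone flags about 5% of such groups. The longest Slit2 transcript has a GC content of 48.2%, and replicate 4 was the highest Mbd2-/- library in 10 of the 11 other tested members with under 50% GC. The part of GC content in this value was not tested. The log2 fold change of Slit2 was -0.27 with and -0.34 without this library, and both passed the threshold in limma.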

How the results depend on the processing

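Counts of members called lower stayed at 11 to 15 under DESeq2, edgeR, limma-voom, other scaling, pseudocounts and filters, beside 6.83% to 11.9% of all genes, with 11 members and 6.83% where no filter was used, and at 20 with the GC trend removed. Without trend and robust moderation in limma they were 7 members, 3 of them receptors, beside 6.45% of all genes where the main share was 10.0%. In that fit 9 of 68 partners were lower and 3 higher, beside 6.45% and 8.56% of all genes. Mbd2 at -0.425 was no longer called there (adjusted p = 0.0731, limma). With the length trend removed 5 members were lower (2 receptors and 3 ligands) and 1 receptor higher, and 4 of 68 partners were lower and 5 higher. In that fit 6.81% of all genes were lower and 8.09% higher. The medians were -0.104 for members and -0.102 for receptors. With both trends removed 2 members were higher (1 receptor and 1 ligand), and 8 of 68 partners were lower and 7 higher. In that fit 10.7% of all genes were lower and 11.6% higher. The medians were -0.086 for members, -0.100 for receptors and -0.071 for ligands. With the GC trend removed 29 of 68 partners were lower and 5 higher, beside 17.1% and 15.9% of all genes. Partners called higher were 3 in edgeR and 3 with no filter, beside 12.5% and 8.29% of all genes. The cause of these shifts was not tested.

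Leaving out each library in turn gave 6 to 20 members lower and 0 to 2 higher, 3 to 15 receptors lower and 0 to 1 higher, 3 to 7 ligands lower and 0 to 1 higher, and 8 to 34 partners lower and 3 to 6 higher. The share of all genes ran from 5.99% to 17.7% lower and from 8.07% to 17.9% higher in the same fits. The highest counts of members, receptors and partners, and both highest shares, came without Mbd2-/- replicate 4. The log2 fold change of Mbd2 ran from -0.560 to -0.346, and its call was lost without wild-type replicate 3, Mbd2-/- replicate 1 or Mbd2-/- replicate 2. Members that were not called and changed sign were Efna3 (-0.070 to 0.051), Epha2 (-0.049 to 0.385), Ephb3 (-0.157 to 0.016), Ephb4 (-0.062 to 0.079), Ntn3 (-0.007 to 0.179) and Ntn5 (-0.078 to 0.111).

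Other sign changes, also in members not called, were Epha3 at 0.052, Epha7 at 0.010, Ephb4 at 0.047, Ntn5 at -0.120 and Robo2 at 0.047 with the length trend removed. With both trends removed they were Epha3 at 0.014, Ephb3 at 0.026, Ephb4 at 0.080, Ntn5 at -0.073 and Robo2 at 0.017. Ephb4 was at 0.002 in edgeR and 0.013 in limma-voom.

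The labels give both genotypes replicate numbers 1 to 4, but the deviations of same-numbered libraries correlated at -0.103, -0.057, 0.0742 and 0.0355, so the numbers were not taken to pair samples. With the number as a replicate block 12 members were called lower and 0 higher, beside 9.99% and 12.0% of all genes, with a median of -0.175. For the scarcest genes depth limits what could be seen, since Epha1, Epha2 and Efna4 had wild-type means of 15.9, 20.6 and 7.17 normalized counts.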
